A study of Mus musculus with 12 samples.

Results

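Cholesterol and fatty acid synthesis genes are a set of 30 genes, chosen by name: 17 enzymes that build cholesterol, the sterol carrier gene *Stard4*, 5 regulators of the pathway and 7 enzymes of fatty acid synthesis. Each gene was represented by the probe that carries its symbol and has the highest mean signal over the 12 arrays. A probe was found for 27 of the 30 members, among 19057 genes with a probe in all, while *Hmgcs1*, *Fdft1* and *Acat2* were not analysed here. Signals are normalized log2 values with a floor near 4.1. Values under 4.5 were counted as background, a limit set once the values were known. The mean over all arrays reached this limit for 22 members and for 8913 of all genes. *Mvk*, *Sc5d*, *Tm7sf2*, *Acaca* and *Fasn* lay under it, and the probes of *Tm7sf2*, *Acaca* and *Fasn* stayed under it on all 12 arrays. *Acaca* and *Fasn* encode acetyl-CoA carboxylase and fatty acid synthase, the central enzymes of fatty acid chain building. For such genes little RNA cannot be told apart from a probe that does not report. A dimmer *Elovl6* probe, for example, averaged 4.15 over all arrays where the brightest *Elovl6* probe averaged 10.16.

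The arrays measured 4 *NdpKO;Ptch+/-* medulloblastomas (MBs), 4 *Ptch+/-* MBs and 4 samples of granule neuron progenitors (GNPs) from wild-type mice at postnatal day 6. Both kinds of tumor arose in mice born with 1 disrupted copy of *Ptch*, the receptor that restrains Sonic hedgehog signalling. The paper describes loss of the remaining copy as a mark of malignant progression in this model. The state of that copy in these tumors was not examined here. *NdpKO;Ptch+/-* tumors also lack Norrin, a secreted ligand that activates Wnt-type signalling. In these mice a *lacZ* cassette disrupts the X-linked gene *Ndp* in the germline, in all cells of the animal. The records give a mixed strain background for *NdpKO;Ptch+/-* MBs and C57Bl/6 for *Ptch+/-* MBs and GNPs, whereas the methods describe controls of the same breeding cohort, so strain and *Ndp* genotype cannot be told apart here. Tumor RNA came from bulk tumor and GNP RNA from cells purified by percoll gradient and pre-plating, and fewer cells of a type cannot be told apart from less RNA per cell.

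By the methods *NdpKO;Ptch+/-* mice are males, while controls could be of either sex. *Eif2s3y*, a gene of the Y chromosome, had log2 signals of 9.82 to 10.52 on 11 arrays and 4.21 on *Ptch+/-* MB replicate 1. Whether every tumor was taken from its own mouse is not in the records, and the p-values therefore cover the spread among these arrays, which may be partly technical. Pearson's r across probes between arrays of 1 group was at least 0.984. Among markers of other cells, the summed linear signal of 10 oligodendrocyte genes was 10156 to 14455 in *NdpKO;Ptch+/-* MBs and 8177 to 14541 in *Ptch+/-* MBs, against 15623 to 30358 in GNPs. That of 7 microglia and macrophage genes was 2577 to 3799 in *NdpKO;Ptch+/-* MBs and 2912 to 6498 in *Ptch+/-* MBs, against 478 to 632 in GNPs. Of 9 granule lineage genes, *Zic1* and *Barhl1* were bright in every group while the probes of *Atoh1* and *Gabra6* were at background on all arrays. The paper shows *Atoh1* by in situ hybridization in tumors of both genotypes, so its probe here does not show that the RNA is absent. The summed signal of the 9 genes was 21292 to 27164 in *NdpKO;Ptch+/-* MBs and 21046 to 28464 in *Ptch+/-* MBs, against 25901 to 34255 in GNPs.

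Cells make cholesterol from acetyl-CoA through mevalonate, isoprenoid units and squalene, which is closed into lanosterol and trimmed in many steps to cholesterol. The pathway is governed by the sterol regulatory element binding proteins (SREBPs), membrane-bound factors that the escort protein Scap carries to the Golgi for release when sterols are low, and that the Insig proteins hold back in the endoplasmic reticulum when sterols are high. *Srebf2* encodes the form that acts mainly on cholesterol genes and *Srebf1* the forms that act mainly on fatty acid genes. In the developing cerebellum sterols are also needed for hedgehog signalling itself, since cholesterol modifies the ligand and sterols act on Smoothened.

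Most cholesterol synthesis enzymes with a mean signal of at least 4.5 were lower in both kinds of tumor than in GNPs, and *Srebf1* was far higher. An adjusted p under 0.05 in limma was taken as passing. In *NdpKO;Ptch+/-* MBs against GNPs 11 members were lower and 1 was higher, and in *Ptch+/-* MBs against GNPs 14 members were lower and 1 was higher. All of these calls fell among the 22 members with a mean of at least 4.5. In *NdpKO;Ptch+/-* MBs against GNPs, 7.98% of all genes were called lower and 7.69% higher, or 13.3% and 15.5% of the genes with a mean of at least 4.5. In *Ptch+/-* MBs against GNPs, 10.9% of all genes were called lower and 10.3% higher, or 18.5% and 19.7% of those with a mean of at least 4.5. Over the 22 members the log2 fold change had a median of -0.56 in *NdpKO;Ptch+/-* MBs and -0.98 in *Ptch+/-* MBs. Over all genes of that brightness it was 0.04 in *NdpKO;Ptch+/-* MBs and -0.01 in *Ptch+/-* MBs. Both comparisons use the same 4 GNP arrays.

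The cholesterol synthesis enzymes supplied most of these calls. Of the 11 enzymes with a mean of at least 4.5, 9 were lower in *NdpKO;Ptch+/-* MBs than in GNPs and 11 were lower in *Ptch+/-* MBs than in GNPs, while 0 of these 11 were higher in either, also at an unadjusted p under 0.05. Averaged over these 11 enzymes, the log2 signal relative to the GNP mean was -0.94, -0.72, -1.11 and -1.14 on the *NdpKO;Ptch+/-* arrays, -1.55, -1.52, -1.54 and -1.32 on the *Ptch+/-* arrays and -0.08, -0.06, 0.06 and 0.08 on the GNP arrays. The averages of the 3 groups did not overlap, with those of *NdpKO;Ptch+/-* MBs between those of *Ptch+/-* MBs and GNPs. Singly, 3 of the 11 enzymes were higher on every *NdpKO;Ptch+/-* than on every *Ptch+/-* array and 0 were lower. Among all genes of that brightness 7.54% did so in each direction. Only 1 of the 11 was called higher between the tumor genotypes and 0 lower, beside 1.6% and 2.59% of such genes. Myelin genes were also lower in tumors: of the 10 oligodendrocyte markers 7 were lower and 1, *Olig1*, was higher in each tumor group than in GNPs. *Mbp*, encoding myelin basic protein, averaged 9.36 in *NdpKO;Ptch+/-* MBs and 8.10 in *Ptch+/-* MBs, against 13.01 in GNPs. *Mag*, another myelin protein, averaged 4.63 and 4.29 in *NdpKO;Ptch+/-* and *Ptch+/-* MBs, against 11.32 in GNPs, and *Mog* and *Mobp* stayed under 4.5 in all 8 tumors. Of the 7 endothelial markers 1 was lower in *NdpKO;Ptch+/-* MBs and 4 were lower in *Ptch+/-* MBs than in GNPs, with 0 called higher. *Emcn* had 1.01 (limma adjusted p = 0.102) in *NdpKO;Ptch+/-* MBs and *Ly6c1* 1.23 (adjusted p = 0.0975) in *Ptch+/-* MBs. Among all genes with a mean of at least 4.5, 13.3% were lower in *NdpKO;Ptch+/-* MBs and 18.5% in *Ptch+/-* MBs. The summed linear signal of the 7 endothelial markers was 1407 to 2079 in *NdpKO;Ptch+/-* MBs and 1188 to 1937 in *Ptch+/-* MBs, against 2430 to 3596 in GNPs. The parts of oligodendrocyte and endothelial RNA in the difference of the sterol enzymes were not tested.

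**Figure D1:**
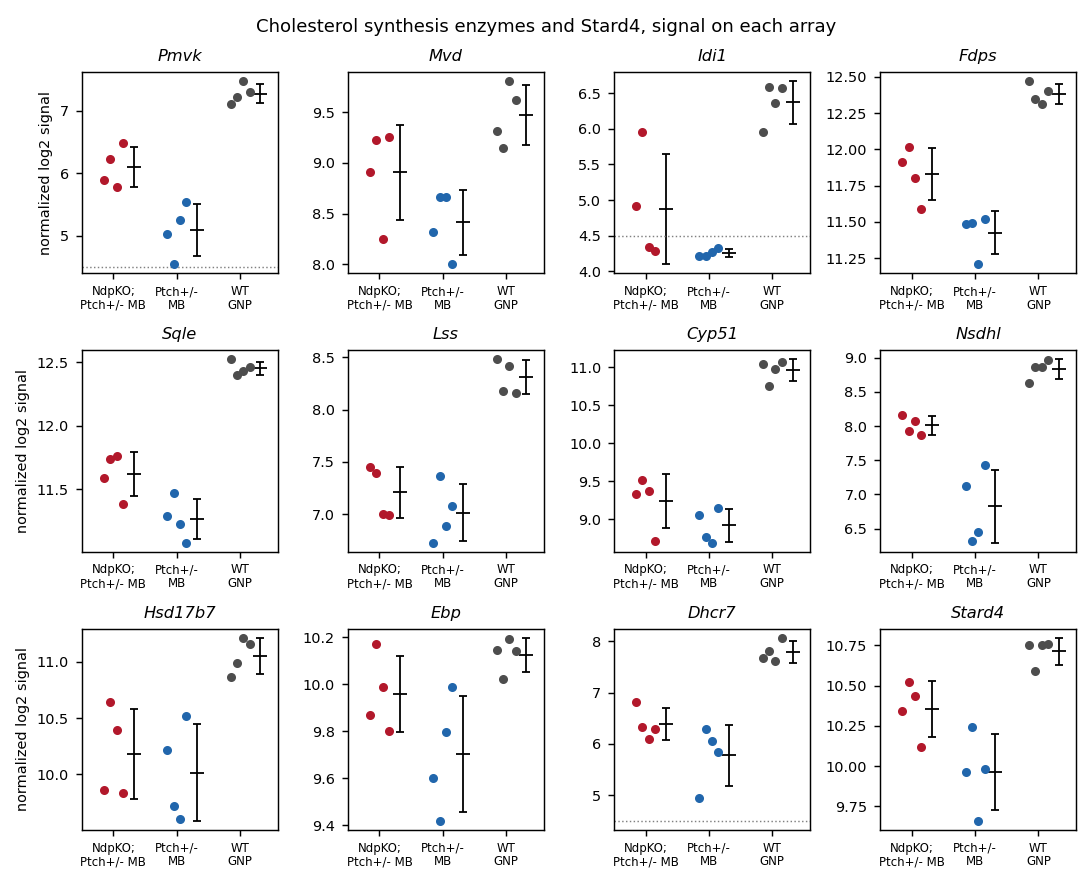
Normalized log2 signal (vertical axes, a separate range per gene) of the 11 cholesterol synthesis enzymes with a mean of at least 4.5 and of *Stard4*, with 1 point per array for *NdpKO;Ptch+/-* MBs (red), *Ptch+/-* MBs (blue) and WT GNPs (grey), and the mean with its SD beside each group of 4. The dotted line marks 4.5 where an axis reaches it. *Cyp51* lies at 8.69 to 9.52 in the tumors, apart from 10.75 to 11.07 in GNPs.

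Sequence upstream of these genes was available from RefSeq for 24 of the 30 members, as 32 windows of 300 bases on GRCm38.p6 that run from 250 bases before to 50 after an annotated start. *Fdps*, *Sqle*, *Stard4*, *Scd1*, *Scd2* and *Fdft1* have no entry there. Short motifs known from SREBP target promoters were searched on both strands. The core of a sterol regulatory element, TCACNCCAC, occurred in 1 of the 32 windows, that of *Hmgcs1*, which has no probe here, and in 1.24% of all 32851 windows of the table. CCAAT, the box bound by NF-Y, a partner of SREBPs, occurred in 21 of the 32 member windows (65.6%) and in 37.4% of all windows. GGGCGG, the GC box bound by Sp1, occurred in 24 member windows and in 35.7% of all windows. A match of letters is no evidence of a bound site, and a motif not found says only that its letters are not in the window. The windows of an enzyme with a large difference from GNPs, *Cyp51* (chr5:4104648-4104947, minus strand), of *Idi1* (chr13:8885356-8885655, plus strand), of *Nsdhl*, the member called between the tumor genotypes (chrX:72918271-72918570, plus strand), and of the regulator *Srebf2* (chr15:82147019-82147318, plus strand) are shown 5′ to 3′ on the strand of the gene, with CCAAT and its reverse complement in capitals.
*Cyp51* promoter: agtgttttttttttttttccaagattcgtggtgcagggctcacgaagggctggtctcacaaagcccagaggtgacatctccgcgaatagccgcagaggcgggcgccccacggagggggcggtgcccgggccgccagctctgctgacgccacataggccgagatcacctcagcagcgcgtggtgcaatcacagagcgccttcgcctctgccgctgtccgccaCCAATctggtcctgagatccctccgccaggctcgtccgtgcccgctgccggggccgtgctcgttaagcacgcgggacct
*Idi1* promoter: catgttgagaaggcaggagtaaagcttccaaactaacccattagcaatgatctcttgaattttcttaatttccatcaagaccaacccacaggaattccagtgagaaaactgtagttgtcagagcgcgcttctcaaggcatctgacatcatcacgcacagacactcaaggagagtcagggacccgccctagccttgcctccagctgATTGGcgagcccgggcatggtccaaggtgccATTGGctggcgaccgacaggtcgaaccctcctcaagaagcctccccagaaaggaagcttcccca
*Nsdhl* promoter: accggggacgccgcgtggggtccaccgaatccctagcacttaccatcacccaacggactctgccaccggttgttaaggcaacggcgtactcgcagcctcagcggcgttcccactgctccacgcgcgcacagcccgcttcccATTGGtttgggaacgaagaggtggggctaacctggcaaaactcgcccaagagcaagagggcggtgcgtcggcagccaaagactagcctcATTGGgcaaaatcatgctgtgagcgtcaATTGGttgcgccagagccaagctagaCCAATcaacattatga
*Srebf2* promoter: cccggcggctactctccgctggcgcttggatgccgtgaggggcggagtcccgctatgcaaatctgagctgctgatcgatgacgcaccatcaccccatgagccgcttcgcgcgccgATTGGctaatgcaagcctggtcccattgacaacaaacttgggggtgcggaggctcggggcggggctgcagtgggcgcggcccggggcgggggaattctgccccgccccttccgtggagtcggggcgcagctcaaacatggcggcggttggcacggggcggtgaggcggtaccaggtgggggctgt

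CCAAT on either strand occurred 4 times in the *Nsdhl* window, 2 times in that of *Idi1* and 1 time each in those of *Cyp51* and *Srebf2*.

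Of the 5 genes of the mevalonate steps with a probe, 3 were lower in *NdpKO;Ptch+/-* MBs and 4 in *Ptch+/-* MBs than in GNPs. *Pmvk*, phosphomevalonate kinase, had log2 signals of 5.90, 6.22, 5.78 and 6.49 in *NdpKO;Ptch+/-* MBs and 5.03, 4.55, 5.26 and 5.53 in *Ptch+/-* MBs, against 7.10, 7.21, 7.47 and 7.29 in GNPs. The 3 groups did not overlap, with *Ptch+/-* MBs lowest. Against GNPs the log2 fold change was -1.17 (SE 0.22, limma adjusted p = 0.00663) in *NdpKO;Ptch+/-* MBs and -2.18 (SE 0.22, adjusted p = 0.000134) in *Ptch+/-* MBs. *Idi1*, the isomerase that makes the activated isoprene unit, had 4.92, 5.96, 4.34 and 4.28 in *NdpKO;Ptch+/-* MBs and 4.21, 4.21, 4.27 and 4.32 in *Ptch+/-* MBs, against 5.96, 6.59, 6.36 and 6.58 in GNPs. *Ptch+/-* MBs lay under the background limit on all 4 arrays and *NdpKO;Ptch+/-* MBs on 2, and the highest *NdpKO;Ptch+/-* tumor met the lowest GNP sample. *Idi1* was thus at least 3.66-fold lower in *Ptch+/-* MBs than in GNPs, taking the limit as the level of the tumors (limma adjusted p = 0.00188), and its fitted log2 fold change in *NdpKO;Ptch+/-* MBs was -1.50 (SE 0.33, adjusted p = 0.0152), a value that is not exact because of the 2 dim arrays.

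*Fdps*, which joins isoprene units into farnesyl diphosphate, had 11.91, 12.01, 11.81 and 11.59 in *NdpKO;Ptch+/-* MBs and 11.48, 11.50, 11.21 and 11.52 in *Ptch+/-* MBs, against 12.47, 12.35, 12.31 and 12.40 in GNPs. Again the 3 groups did not overlap. Relative to GNPs the log2 fold change was -0.55 (SE 0.10, limma adjusted p = 0.0047) in *NdpKO;Ptch+/-* MBs and -0.96 (SE 0.10, adjusted p = 0.000139) in *Ptch+/-* MBs. A second *Fdps* probe gave -2.78 in *NdpKO;Ptch+/-* MBs and -2.74 in *Ptch+/-* MBs. *Mvd*, mevalonate diphosphate decarboxylase, had a log2 fold change against GNPs of -0.56 (limma adjusted p = 0.203) in *NdpKO;Ptch+/-* MBs and of -1.06 (adjusted p = 0.0175) in *Ptch+/-* MBs, and the difference between the genotypes was 0.50 with a 95% interval of -0.07 to 1.06. Without GNP replicate 3 the *Mvd* difference in *Ptch+/-* MBs no longer passed (-0.95, adjusted p = 0.0502). *Mvk*, mevalonate kinase, reached the background limit on 3 *NdpKO;Ptch+/-* arrays and 1 *Ptch+/-* array, and on 0 GNP arrays. It had a log2 fold change of 0.44 (limma adjusted p = 0.0636) in *NdpKO;Ptch+/-* MBs and 0.06 (adjusted p = 0.825) in *Ptch+/-* MBs against GNPs, and was higher on every *NdpKO;Ptch+/-* array than on every GNP array.

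The squalene steps were lower as well. *Sqle*, squalene epoxidase, a rate-controlling step, had 11.59, 11.74, 11.76 and 11.38 in *NdpKO;Ptch+/-* MBs and 11.29, 11.47, 11.23 and 11.08 in *Ptch+/-* MBs, against 12.52, 12.40, 12.43 and 12.46 in GNPs. Every tumor lay below every GNP sample, while 1 *NdpKO;Ptch+/-* tumor overlapped with *Ptch+/-* tumors. The log2 fold change against GNPs was -0.84 (SE 0.10, limma adjusted p = 0.000444) in *NdpKO;Ptch+/-* MBs and -1.19 (SE 0.10, adjusted p = 3.33e-05) in *Ptch+/-* MBs. A second *Sqle* probe had 9.58, 9.75, 10.01 and 9.65 in *NdpKO;Ptch+/-* MBs and 9.38, 9.03, 9.19 and 8.96 in *Ptch+/-* MBs, against 11.18, 11.20, 10.93 and 11.13 in GNPs. On it the groups did not overlap, with 0.61 (limma adjusted p = 0.0382) between the tumor genotypes, where the brighter probe gave 0.35 (adjusted p = 0.13). *Lss*, which closes the ring to lanosterol, had 7.45, 7.39, 7.003 and 6.99 in *NdpKO;Ptch+/-* MBs and 6.73, 7.36, 6.89 and 7.08 in *Ptch+/-* MBs, against 8.48, 8.18, 8.42 and 8.16 in GNPs. Tumors of both genotypes overlapped with each other and lay below all GNP samples, with a log2 fold change of -1.10 (SE 0.16, limma adjusted p = 0.00166) in *NdpKO;Ptch+/-* MBs and -1.30 (SE 0.16, adjusted p = 0.000477) in *Ptch+/-* MBs.

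*Cyp51*, the lanosterol demethylase, had 9.33, 9.52, 9.37 and 8.72 in *NdpKO;Ptch+/-* MBs and 9.06, 8.77, 8.69 and 9.15 in *Ptch+/-* MBs, against 11.04, 10.75, 10.98 and 11.07 in GNPs. Both tumor groups were far below GNPs and overlapped with each other. *Cyp51* was 3.30-fold lower in *NdpKO;Ptch+/-* MBs (log2 fold change -1.72, SE 0.17, limma adjusted p = 0.00021) and 4.11-fold lower in *Ptch+/-* MBs (-2.04, SE 0.17, adjusted p = 5.01e-05) than in GNPs. *Msmo1*, the sterol C4 methyl oxidase of the next steps, is not a member but was the related gene with the largest difference from GNPs, with -2.05 (limma adjusted p = 8.15e-05) in *NdpKO;Ptch+/-* MBs and -2.32 (adjusted p = 2.61e-05) in *Ptch+/-* MBs.

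*Hsd17b7*, the 3-ketosteroid reductase of the sterol steps, had 9.86, 10.64, 10.39 and 9.83 in *NdpKO;Ptch+/-* MBs and 10.22, 9.72, 9.61 and 10.52 in *Ptch+/-* MBs, against 10.86, 10.99, 11.21 and 11.16 in GNPs. Tumors varied more than GNPs and lay below them on every array, with a log2 fold change of -0.88 (SE 0.24, limma adjusted p = 0.042) in *NdpKO;Ptch+/-* MBs and -1.04 (SE 0.24, adjusted p = 0.0151) in *Ptch+/-* MBs. The call in *NdpKO;Ptch+/-* MBs was lost without 8 of the 12 arrays in turn (adjusted p of 0.0551 to 0.114). *Dhcr7*, which reduces 7-dehydrocholesterol in a last step of the pathway, had 6.82, 6.34, 6.09 and 6.30 in *NdpKO;Ptch+/-* MBs and 4.94, 6.30, 6.06 and 5.84 in *Ptch+/-* MBs, against 7.67, 7.82, 7.61 and 8.07 in GNPs. *Ptch+/-* MB replicate 1 was the lowest, and all tumors lay below all GNP samples. Against GNPs the log2 fold change was -1.40 (SE 0.28, limma adjusted p = 0.00917) in *NdpKO;Ptch+/-* MBs and -2.01 (SE 0.28, adjusted p = 0.000957) in *Ptch+/-* MBs.

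The sterol isomerase *Ebp*, an X-linked gene, had a log2 fold change against GNPs of -0.17 (SE 0.12, limma adjusted p = 0.442) in *NdpKO;Ptch+/-* MBs and of -0.42 (SE 0.12, adjusted p = 0.0373) in *Ptch+/-* MBs. The call in *Ptch+/-* MBs was lost without 9 of the 12 arrays in turn, with adjusted p of 0.0513 to 0.0916. *Stard4*, a carrier that moves cholesterol between membranes, had -0.36 (SE 0.12, limma adjusted p = 0.0913) in *NdpKO;Ptch+/-* MBs and -0.75 (SE 0.12, adjusted p = 0.00232) in *Ptch+/-* MBs. *Sc5d* and *Tm7sf2*, further sterol enzymes, were at or near background and were not called in any comparison.

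*Nsdhl*, the X-linked sterol dehydrogenase that removes the C4 carboxyl group, was the only member called between the tumor genotypes on its brightest probe. It had 8.16, 7.93, 8.08 and 7.86 in *NdpKO;Ptch+/-* MBs and 7.13, 6.31, 6.45 and 7.42 in *Ptch+/-* MBs, against 8.63, 8.86, 8.87 and 8.97 in GNPs. The 3 groups did not overlap, and *Ptch+/-* MBs were both lowest and most variable. *Nsdhl* was 2.27-fold higher in *NdpKO;Ptch+/-* than in *Ptch+/-* MBs (log2 fold change 1.18, SE 0.22, limma adjusted p = 0.0386). The probe next in brightness gave 1.07 without passing (adjusted p = 0.134), and the one after it gave 1.20 (adjusted p = 0.0461). Against GNPs *Nsdhl* had a log2 fold change of -0.82 (SE 0.22, limma adjusted p = 0.0404) in *NdpKO;Ptch+/-* MBs and of -2.003 (SE 0.22, adjusted p = 0.000272) in *Ptch+/-* MBs.

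The call between genotypes was close to the threshold. It was lost without any 1 of 11 arrays, with adjusted p of 0.0508 to 0.0948, and kept without *Ptch+/-* MB replicate 4 (log2 fold change 1.38, adjusted p = 0.0149), while the log2 fold change stayed between 1.01 and 1.38. *Ptch+/-* MB replicate 1, the array without signal of the Y-linked *Eif2s3y*, had the second-highest *Nsdhl* signal of its group, and without it the difference was 1.28 (limma adjusted p = 0.0508). The lower signal in *NdpKO;Ptch+/-* MBs against GNPs was lost without any 1 of 8 arrays, all 4 *NdpKO;Ptch+/-* and all 4 GNP arrays (adjusted p of 0.0604 to 0.0974).

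Between the tumor genotypes, 1 of the 27 members, *Nsdhl*, was called higher and 0 were called lower in *NdpKO;Ptch+/-* against *Ptch+/-* MBs, where 0.808% of all genes were called higher and 1.26% lower, or 1.6% and 2.59% of the genes with a mean of at least 4.5. At an unadjusted p under 0.05, 10 members were higher and 1 lower, beside 8.52% and 7.91% of all genes, or 14.6% and 13% of the genes with a mean of at least 4.5. All 11 measured cholesterol enzymes had a log2 fold change above 0, of 0.17 to 1.18 with a median of 0.40, and 19 of the 22 members of that brightness (86.4%) did, beside 53.2% of all such genes, whose median was 0.02. These genes are measured on the same arrays and are not independent. Of the 22 members, 3 were higher on every array of *NdpKO;Ptch+/-* than of *Ptch+/-* MBs while 1 was lower, beside 7.54% of such genes in each direction. *Pmvk* (log2 fold change 1.01, SE 0.22, limma adjusted p = 0.0616) and *Fdps* (0.40, SE 0.10, adjusted p = 0.0884) were the other 2 higher on every array. Neither passed as reported. *Pmvk* did with dim probes left out (limma adjusted p = 0.0166), with an intensity trend and robust prior (adjusted p = 0.045), with the mean of all probes of a gene (adjusted p = 0.04) and without *Ptch+/-* MB replicate 4 (adjusted p = 0.0394). The second *Fdps* probe gave -0.04 (adjusted p = 0.988), with overlapping genotypes. The brighter *Fdps* probe passed with that prior (adjusted p = 0.0368) and without *NdpKO;Ptch+/-* MB replicate 4 (adjusted p = 0.0335). *Sqle* (0.32, adjusted p = 0.0215) and *Insig1* (0.51, adjusted p = 0.0344) passed with the mean of all probes of a gene. Of the 10 oligodendrocyte markers *Mbp* (1.26, adjusted p = 0.132) and *Ugt8a* (1.17, adjusted p = 0.298) were also higher in *NdpKO;Ptch+/-* than in *Ptch+/-* MBs at an unadjusted p under 0.05. The median log2 fold change of these 10 was 0.06, and *Cldn11* (-0.05) and *Olig2* (-0.22) lay below 0. At that p 2 of the 7 endothelial markers were higher and 0 lower, while *Ly6c1* had -0.84. The part of oligodendrocyte and endothelial RNA in the values of the members was not tested.

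**Figure D2:**
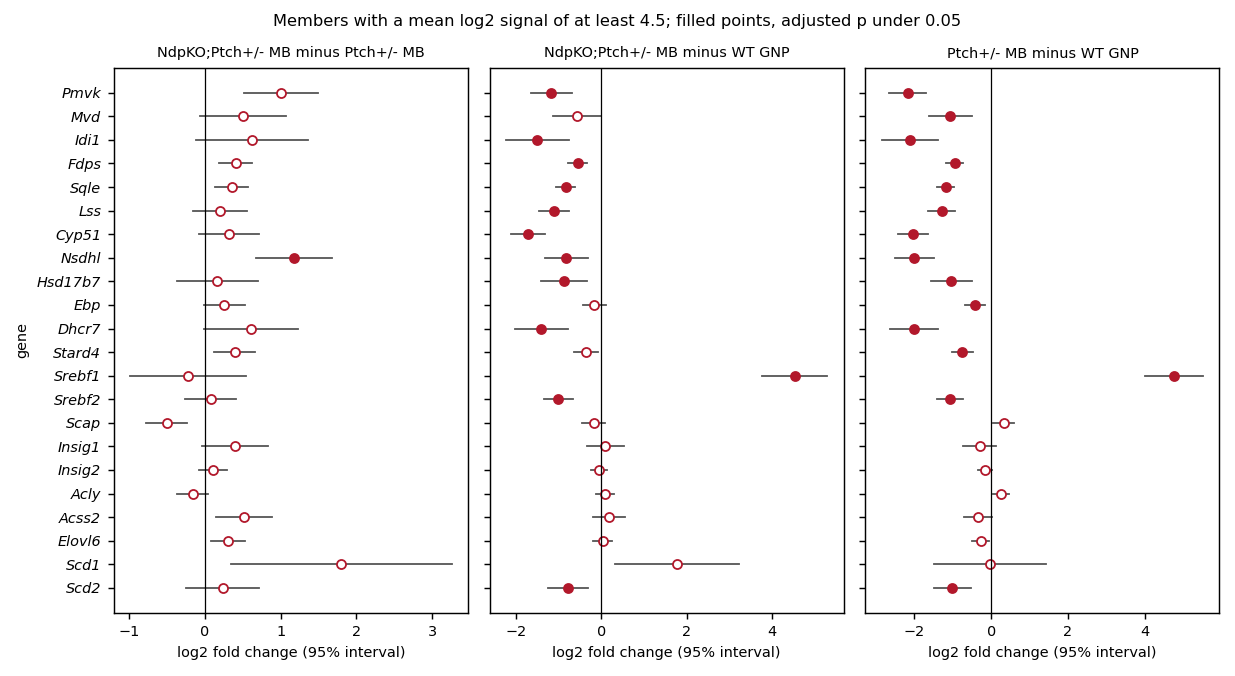
Log2 fold change (horizontal axes) of the 22 members with a mean log2 signal of at least 4.5, with 95% intervals from limma, for *NdpKO;Ptch+/-* against *Ptch+/-* MBs (left), *NdpKO;Ptch+/-* MBs against WT GNPs (middle) and *Ptch+/-* MBs against WT GNPs (right), with filled points at an adjusted p under 0.05. Cholesterol enzymes lie left of 0 in both comparisons with GNPs and right of 0 between the genotypes, where *Nsdhl* alone is filled, and *Srebf1* lies at 4.53 in *NdpKO;Ptch+/-* MBs and 4.76 in *Ptch+/-* MBs against GNPs.

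The SREBP genes moved in opposite directions between tumors and GNPs. *Srebf1* had 9.85, 9.28, 8.96 and 8.66 in *NdpKO;Ptch+/-* MBs and 9.89, 8.83, 9.34 and 9.58 in *Ptch+/-* MBs, against 4.31, 4.44, 4.41 and 5.45 in GNPs. It was bright in all 8 tumors, and in GNPs replicate 4 alone lay above the background limit. Because 3 GNP arrays were dim, the fitted log2 fold changes of 4.53 (SE 0.34, limma adjusted p = 3.04e-05) in *NdpKO;Ptch+/-* MBs and 4.76 (SE 0.34, adjusted p = 1.68e-05) in *Ptch+/-* MBs are not exact. Leaving out GNP replicate 4 gave 4.80 in *NdpKO;Ptch+/-* MBs and 5.02 in *Ptch+/-* MBs. The tumor genotypes differed by -0.22, with a 95% interval of -0.99 to 0.54. The other *Srebf1* probe was at background on all arrays, so the averages over both probes were smaller, at 2.27 in *NdpKO;Ptch+/-* MBs and 2.38 in *Ptch+/-* MBs. Against GNPs, 5 of 7 microglial and 3 of 8 astrocyte markers were higher in each tumor group too. The astrocyte genes were *Gfap* and *Slc1a2* in both, with *Aldoc* in *NdpKO;Ptch+/-* MBs and *Slc1a3* in *Ptch+/-* MBs. Another astrocyte gene, *Gja1*, was lower in *Ptch+/-* MBs (-1.30, limma adjusted p = 0.00817). *Olig1* was the 1 higher gene of 10 oligodendrocyte markers, of which 7 were lower in each tumor group. *Clic6* was the 1 higher gene of 4 choroid plexus markers, with 0 lower. Among all genes 7.69% were higher in *NdpKO;Ptch+/-* MBs and 10.3% in *Ptch+/-* MBs. *Gfap*, the astrocyte filament protein, had a log2 fold change of 1.88 in *NdpKO;Ptch+/-* MBs and 2.02 in *Ptch+/-* MBs. The part of these cells in the *Srebf1* signal was not tested.

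*Srebf2* had 8.23, 8.38, 8.61 and 8.36 in *NdpKO;Ptch+/-* MBs and 7.85, 8.69, 8.35 and 8.38 in *Ptch+/-* MBs, against 9.42, 9.38, 9.35 and 9.45 in GNPs. Tumors of the 2 genotypes overlapped and all lay below the GNPs, with a log2 fold change of -1.01 (SE 0.15, limma adjusted p = 0.0021) in *NdpKO;Ptch+/-* MBs and -1.08 (SE 0.15, adjusted p = 0.00103) in *Ptch+/-* MBs. A second *Srebf2* probe, annotated through a cDNA clone, gave -1.91 in *NdpKO;Ptch+/-* MBs and -2.63 in *Ptch+/-* MBs. *Mbtps2*, the X-linked site-2 protease that frees SREBPs in the Golgi membrane and a related gene outside the set, was also lower, with -1.62 (limma adjusted p = 0.00894) in *NdpKO;Ptch+/-* MBs and -1.32 (adjusted p = 0.0183) in *Ptch+/-* MBs. It was under 4.5 on 2 *NdpKO;Ptch+/-* arrays, so that -1.62 is not exact, and the call in *Ptch+/-* MBs was lost without *Ptch+/-* MB replicate 2 or GNP replicate 4 (adjusted p of 0.0501 and 0.0516).

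*Insig1*, itself a target of SREBPs, gave different answers by probe. Its brightest probe had 8.95, 9.20, 8.83 and 9.10 in *NdpKO;Ptch+/-* MBs and 8.37, 8.66, 8.47 and 8.99 in *Ptch+/-* MBs, against 8.72, 8.50, 9.18 and 9.29 in GNPs. The groups overlapped, and the log2 fold change against GNPs was 0.09 (95% interval -0.34 to 0.53) in *NdpKO;Ptch+/-* MBs and -0.30 (-0.74 to 0.13) in *Ptch+/-* MBs. The second probe, by contrast, had 7.57, 8.14, 7.63 and 7.84 in *NdpKO;Ptch+/-* MBs and 7.56, 7.02, 6.52 and 7.20 in *Ptch+/-* MBs, against 10.54, 10.58, 10.51 and 10.38 in GNPs. Here every tumor lay below every GNP sample, with a log2 fold change of -2.71 (SE 0.20, limma adjusted p = 2.81e-05) in *NdpKO;Ptch+/-* MBs and -3.43 (SE 0.20, adjusted p = 4.69e-06) in *Ptch+/-* MBs. The next probe in brightness gave -3.04 in *NdpKO;Ptch+/-* MBs and -3.94 in *Ptch+/-* MBs, and a last one was at background on all arrays. Between the tumor genotypes these 2 dimmer probes did not overlap, with 0.72 (limma adjusted p = 0.141) and 0.90 (adjusted p = 0.0943), while the brightest gave 0.40 (adjusted p = 0.431) with overlap. All these probes are annotated to the same RefSeq transcript, and the file does not say which part of it each one reads. Their values were looked up after the brightest probe had been seen.

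*Scap* had 7.53, 7.30, 7.27 and 7.22 in *NdpKO;Ptch+/-* MBs and 7.63, 8.07, 7.64 and 8.01 in *Ptch+/-* MBs, against 7.52, 7.58, 7.63 and 7.30 in GNPs. It was the member that was lower on every array of *NdpKO;Ptch+/-* than of *Ptch+/-* MBs, with a log2 fold change of -0.51 (SE 0.12), and did not pass (limma adjusted p = 0.0924), but did with dim probes left out (adjusted p = 0.0417). A dimmer second *Scap* probe, annotated through a cDNA clone and also examined after its value was seen, had 4.69, 4.38, 4.88 and 4.52 in *NdpKO;Ptch+/-* MBs and 6.16, 6.49, 6.20 and 5.71 in *Ptch+/-* MBs, against 4.25, 4.22, 4.24 and 4.21 in GNPs. That probe was above the limit on all 4 *Ptch+/-* arrays and on 0 GNP arrays, and the genotypes differed by -1.53 (SE 0.15, adjusted p = 0.00282). *Insig2* had 8.88, 9.25, 8.91 and 8.96 in *NdpKO;Ptch+/-* MBs and 9.04, 8.78, 8.88 and 8.86 in *Ptch+/-* MBs, against 8.98, 9.08, 9.08 and 9.08 in GNPs. The groups overlapped without a call in any comparison.

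**Figure D3:**
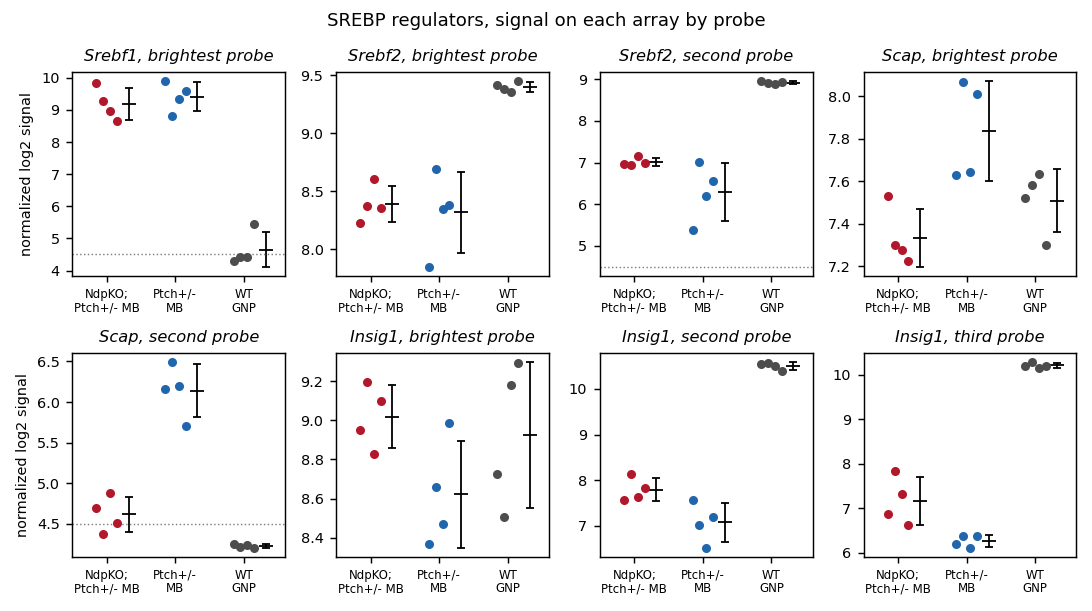
Normalized log2 signal (vertical axes, a separate range per panel) of probes for the SREBP regulators, with 1 point per array for *NdpKO;Ptch+/-* MBs (red), *Ptch+/-* MBs (blue) and WT GNPs (grey), the mean with its SD beside each group of 4, and a dotted line at 4.5 where an axis reaches it. *Srebf1* is high in tumors and near background in GNPs, both *Srebf2* probes are lower in tumors, and the *Insig1* probes differ, with overlapping groups for the brightest and lower tumors for the other 2.

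Of the 5 fatty acid synthesis genes with a mean of at least 4.5, 1 was lower than in GNPs in both kinds of tumor, beside 13.3% of all genes of that brightness in *NdpKO;Ptch+/-* MBs and 18.5% in *Ptch+/-* MBs. This was *Scd2*, a stearoyl-CoA desaturase of the brain, with 7.81, 7.72, 7.88 and 7.76 in *NdpKO;Ptch+/-* MBs and 7.17, 7.36, 7.42 and 8.28 in *Ptch+/-* MBs, against 8.72, 8.74, 8.28 and 8.55 in GNPs. *NdpKO;Ptch+/-* MBs were tightly grouped below GNPs, and *Ptch+/-* MB replicate 4 met the lowest GNP sample. The log2 fold change against GNPs was -0.78 (SE 0.21, limma adjusted p = 0.042) in *NdpKO;Ptch+/-* MBs and -1.01 (SE 0.21, adjusted p = 0.00983) in *Ptch+/-* MBs. The call in *NdpKO;Ptch+/-* MBs was lost without 9 of the 12 arrays in turn (adjusted p of 0.0537 to 0.106).

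The related desaturase *Scd1*, a target of *Srebf1* and of liver X receptors, varied widely among *Ptch+/-* MBs. It had 8.98, 8.43, 8.51 and 7.81 in *NdpKO;Ptch+/-* MBs and 5.44, 5.36, 7.11 and 8.61 in *Ptch+/-* MBs, against 6.44, 6.41, 6.71 and 7.04 in GNPs. All *NdpKO;Ptch+/-* MBs lay above all GNP samples, whereas *Ptch+/-* MBs ran below and above them, with replicate 4 inside the *NdpKO;Ptch+/-* range. The log2 fold change was 1.80 (SE 0.65, limma adjusted p = 0.259) against *Ptch+/-* MBs and 1.78 (SE 0.65, adjusted p = 0.117) against GNPs. Without *Ptch+/-* MB replicate 4 the difference between genotypes was 2.46 and passed (adjusted p = 0.0392). It passed under no other alternative, including leaving out any other array.

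The remaining fatty acid genes were not called. ATP citrate lyase, *Acly*, which supplies cytosolic acetyl-CoA, averaged 12.84 ± 0.15 in *NdpKO;Ptch+/-* MBs and 13.01 ± 0.17 in *Ptch+/-* MBs, against 12.76 ± 0.06 in GNPs (SD, n = 4 each). Acetyl-CoA synthetase, *Acss2*, averaged 10.01 ± 0.26 and 9.49 ± 0.29 in *NdpKO;Ptch+/-* and *Ptch+/-* MBs, against 9.83 ± 0.15 in GNPs. The elongase *Elovl6* averaged 10.28 ± 0.15 and 9.97 ± 0.16 in *NdpKO;Ptch+/-* and *Ptch+/-* MBs, against 10.24 ± 0.11 in GNPs. The 95% intervals of their log2 fold changes against GNPs lay within -0.71 to 0.55. In *Ptch+/-* MBs against GNPs those of *Acly* (0.04 to 0.46) and *Elovl6* (-0.49 to -0.05) left out 0. In *NdpKO;Ptch+/-* against *Ptch+/-* MBs *Acss2* had 0.52 (0.15 to 0.89, limma adjusted p = 0.198) and *Elovl6* 0.30 (0.08 to 0.53, adjusted p = 0.203). *Acly* had -0.16 there (-0.37 to 0.05, adjusted p = 0.528).

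**Figure D4:**
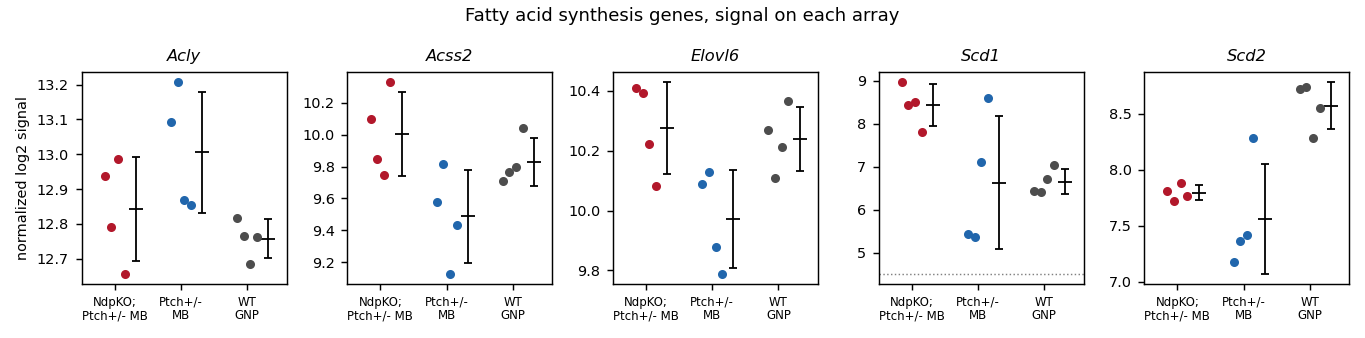
Normalized log2 signal (vertical axes, a separate range per gene) of the 5 fatty acid synthesis genes with a mean of at least 4.5, with 1 point per array for *NdpKO;Ptch+/-* MBs (red), *Ptch+/-* MBs (blue) and WT GNPs (grey), the mean with its SD beside each group of 4, and a dotted line at 4.5 where an axis reaches it. *Scd1* spans 5.36 to 8.61 in *Ptch+/-* MBs and 7.81 to 8.98 in *NdpKO;Ptch+/-* MBs, and *Scd2* is lower in tumors than in GNPs apart from 1 *Ptch+/-* tumor.

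A further 64 genes of sterol branches, uptake, efflux, SREBP processing and fatty acid supply or oxidation were listed as related, and 57 of them had a probe. Against GNPs 10 were lower and 5 higher in *NdpKO;Ptch+/-* MBs, and 13 were lower and 6 higher in *Ptch+/-* MBs. Among all genes 7.98% were lower and 7.69% higher in *NdpKO;Ptch+/-* MBs, and 10.9% lower and 10.3% higher in *Ptch+/-* MBs. *Lipa*, the lysosomal lipase that frees cholesterol from its esters, had the largest higher value, with 1.49 (SE 0.10, limma adjusted p = 1.9e-05) in *NdpKO;Ptch+/-* MBs and 1.73 (SE 0.10, adjusted p = 5.65e-06) in *Ptch+/-* MBs. *Acsl4*, an acyl-CoA synthetase that prefers arachidonate, had -0.80 (SE 0.43, limma adjusted p = 0.291) in *NdpKO;Ptch+/-* MBs and -1.58 (SE 0.43, adjusted p = 0.032) in *Ptch+/-* MBs. The value in *Ptch+/-* MBs is not exact, since 3 of the 4 arrays were under 4.5, and its call was lost without any 1 of 6 arrays, *Ptch+/-* MB replicates 2, 3 and 4 and GNP replicates 1, 2 and 4 (adjusted p of 0.0666 to 0.0846). The difference between the genotypes did not pass for either gene.

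Between the genotypes 2 of the 57 related genes were lower in *NdpKO;Ptch+/-* MBs and 0 were higher in limma. Beside them 1.26% of all genes were lower and 0.808% higher, or 2.59% and 1.6% of those with a mean of at least 4.5. At an unadjusted p under 0.05, 6 related genes were lower and 8 higher. Of all genes 7.91% were lower and 8.52% higher at that p, or 13% and 14.6% of those with a mean of at least 4.5. *Mid1ip1*, an X-linked gene whose product activates acetyl-CoA carboxylase, had 8.52, 8.58, 8.37 and 8.58 in *NdpKO;Ptch+/-* MBs and 9.14, 8.95, 9.36 and 9.85 in *Ptch+/-* MBs, against 9.70, 9.71, 9.55 and 9.72 in GNPs. The tumor genotypes did not overlap, with a log2 fold change of -0.81 (SE 0.16, limma adjusted p = 0.0466), and *NdpKO;Ptch+/-* MBs were lower than GNPs, with -1.16 (adjusted p = 0.00137). *Lpcat3*, a lysophospholipid acyltransferase controlled by liver X receptors, had 9.29, 9.05, 9.15 and 9.17 in *NdpKO;Ptch+/-* MBs and 9.41, 9.43, 9.56 and 9.68 in *Ptch+/-* MBs, against 9.20, 9.21, 9.08 and 9.23 in GNPs. Every *NdpKO;Ptch+/-* tumor lay below every *Ptch+/-* tumor, with a log2 fold change of -0.36 (SE 0.07, limma adjusted p = 0.0421), and *Ptch+/-* MBs lay above GNPs by 0.34 (adjusted p = 0.00834). Between the genotypes both calls were lost without any 1 of 10 arrays, and kept for *Mid1ip1* without *Ptch+/-* MB replicate 2 or 4 and for *Lpcat3* without replicate 1 of either genotype (adjusted p up to 0.104 for *Mid1ip1* and 0.101 for *Lpcat3*). Of the 7 endothelial markers 1, *Emcn*, was higher in *NdpKO;Ptch+/-* than in *Ptch+/-* MBs, while 0 of the 10 oligodendrocyte and 0 of the 7 microglial markers passed between the genotypes in limma, or 2 oligodendrocyte markers higher and 2 microglial markers lower at an unadjusted p under 0.05.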

How the data were processed

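Each of 12 RNA samples was hybridised to 1 Illumina mouse BeadChip (MouseWG-6 v2.0). The deposited values are normalized log2 signals. The authors obtained them with limma's neqc from BeadStudio output, that is, by background correction on negative controls, a small offset and quantile normalization, so that general shifts between arrays cannot be seen and all arrays share a median of 4.15. Scanner values were not used here, so the precision is limited by the number of arrays, 4 per group. The platform annotation gives 1 symbol to 34885 of the 45281 probes, several to 18 and none to 10378.

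The values were fitted in R 4.3.3 with limma 3.58.1 (lmFit and eBayes, 1 group-means model over all 12 arrays, no covariates), with the Benjamini-Hochberg adjustment over all probes, and an adjusted p under 0.05 was called. Where all arrays of the dimmer group lay under 4.5, a fold is given as "at least", with that limit as the dimmer level. All members are named. Array values are given for the member called between genotypes, members called in both comparisons with GNPs and the 5 regulators, and related genes are named where called between genotypes or among the 4 largest called differences from GNPs. Outside this rule, array values are also given for *Scd1*, which was called in no comparison as reported. The same holds for *Mid1ip1*, *Lpcat3* and second probes of *Sqle*, *Insig1* and *Scap*, whose array values are also given. Markers of other cells were counted and their linear signals summed. Members, lists and rules were chosen with earlier results of these data known. Alternatives were other normalizations, filters, variance priors, array weights, pairs of groups alone, the replicate number as a block, other probes of a gene, stricter thresholds and leaving out each array. Promoter windows come from RefSeq on GRCm38.p6 and served for letter searches alone.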

Additional observations from a re-analysis of the deposited data

Results flagged for a closer look

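In 4 of the 68 member and group combinations of 4 arrays examined, 1 sample stood far from the other 3, and chance alone sets about 1 in 20 apart. *Fdps* was 11.2077 in *Ptch+/-* MB replicate 3, against 11.48 to 11.52 in the others. *Srebf1* was 5.45163 in GNP replicate 4, against 4.31 to 4.44 in the others. *Insig2* was 8.98214 in GNP replicate 1, against 9.08 in the others. *Stard4* was 10.5884 in GNP replicate 2, against 10.75 to 10.76 in the others.

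The difference from GNPs was not the same in the 2 tumor groups for 3 genes by the limma test between these groups, which share the GNPs. Strain and *Ndp* genotype cannot be told apart here, and the calls were lost on leaving out 10 or 11 of the 12 arrays in turn. The log2 fold change in *NdpKO;Ptch+/-* against *Ptch+/-* MBs was 1.18 for *Nsdhl*, -0.81 for *Mid1ip1* and -0.36 for *Lpcat3*. *Nsdhl* and *Mid1ip1* lie on the X chromosome, as *Ndp* does. So do *Ebp* (0.26, limma adjusted p = 0.409) and *Mbtps2* (-0.30, adjusted p = 0.793), which were not called between the genotypes. A part of X linkage in these differences was not tested.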

How the results depend on the processing

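No log2 fold change of a called member reversed under any alternative. Of the 12 members called in *NdpKO;Ptch+/-* MBs against GNPs 6 passed under every alternative, and of the 15 called in *Ptch+/-* MBs against GNPs 10 did. The call of *Nsdhl* between the genotypes passed in 8 of 23 alternatives (adjusted p of 0.00852 to 0.19). The number of members higher in *NdpKO;Ptch+/-* than in *Ptch+/-* MBs, 1 as reported, was 2 with dim probes left out (*Nsdhl* and *Pmvk*), 3 with an intensity trend and robust prior (with *Pmvk* and *Fdps*), 4 with the mean of all probes of a gene, 0 with only the 2 groups compared, 0 at an adjusted p under 0.01 and 0 to 3 on leaving out 1 array. The number lower there, 0 as reported, was 1, *Scap*, with dim probes left out, with the mean of all probes and with the second-brightest probe, an alternative added after the data were seen. Members higher in *NdpKO;Ptch+/-* MBs than in GNPs, 1 as reported, numbered 3 with dim probes left out, 2 with a trend and robust prior, array weights, only the 2 groups or the mean of all probes, and 1 to 2 on leaving out 1 array. Members lower there, 11 as reported, numbered 7 at an adjusted p under 0.01, 6 when a log2 fold change over 1 in size was also asked for, and 8 to 11 on leaving out 1 array. In *Ptch+/-* MBs against GNPs 14 members were lower as reported, 11 to 16 over the 23 alternatives and 12 to 14 on leaving out 1 array. There 1 member was higher as reported and on leaving out any array, or 2 with the mean of all probes and with the second-brightest probe. *Hsd17b7* and *Scd2* lost their calls in *NdpKO;Ptch+/-* MBs against GNPs without 8 and 9 of the 12 arrays (adjusted p up to 0.114 and 0.106). With the replicate number as a block, a replicate block on numbers that do not pair the samples (correlations of -0.182 to 0.111 between same-numbered samples), 0 members were called between the genotypes. The array number limits small differences, and genes at background have only an upper limit.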
